A study of Danio rerio with 3 samples.

Results

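Otic and placodal neuroblasts are the cells that leave the thickened head ectoderm, or the wall of the young ear, to found sensory ganglia. They were chosen here from single-cell RNA counts by a rule on 5 genes: neurod1 at 3 UMIs or more, six1b plus eya1 at 2 UMIs or more together, and 0 UMIs of isl1 and isl2b, in cells with at least 500 and under 6500 genes and under 5% mitochondrial UMIs. A UMI (unique molecular identifier) marks 1 captured transcript molecule. Of 29762 deposited cell barcodes, 23453 passed the limits on genes and mitochondrial UMIs, and 73 of these met the rule. Because part of the 73 cells did not carry otic genes (below), they are called neurod1 placodal cells after their rule. The name refers to the placode genes of the rule and not to the origin of each cell.

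The tissue was the dissected zebrafish otic vesicle with its surroundings, pooled from several embryos, at about 22 hpf per the labels, while the study's methods name several stages that were pooled. There was 1 library each for shox2Δ/Δ mutant, heterozygote and wild-type embryos. The Δ allele lacks parts of exons 1 and 2 of shox2, a homeobox gene of the otic placode and cranial ganglia. Mutant embryos came from an incross of Tg(shox2Gal4/Δ; UAS:GFP) fish and were chosen without GFP. Wild-type embryos carried the neurog1:dsRed and neurod1:EGFP transgenes, and the crosses behind the heterozygote library are not given in the sources used here. With 1 library per genotype, a difference between genotypes cannot be told apart from one between libraries, reporters or dissections, so no test was made between genotypes.

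In the vertebrate ear, neurog1, a bHLH factor, commits cells of the otic epithelium to a neuronal fate and switches on neurod1, which acts as the cells delaminate, divide and differentiate. The transcriptional cofactor Eya1 marks placodes and their derivatives, and the islet genes isl1 and isl2b are switched on in the neurons that form. Delta ligands on a committed cell activate Notch in its neighbours, which hold back from the neuronal fate. Together these genes describe a short-lived step between a dividing epithelium and a post-mitotic neuron.

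The 73 cells comprised 11 mutant, 18 heterozygote and 44 wild-type cells. They made up 0.165% of the 6672 mutant cells that passed (exact Clopper-Pearson 95% interval 0.0823% to 0.295%), 0.219% of the 8233 heterozygote cells (0.13% to 0.345%) and 0.515% of the 8548 wild-type cells (0.374% to 0.690%). The mutant and wild-type intervals did not overlap, and neither did the heterozygote and wild-type ones. These intervals cover counting error only, within 1 library per genotype. In the same libraries, cells with placode genes and islet UMIs, called placodal neurons here, were 1.59%, 1.18% and 1.5% of mutant, heterozygote and wild-type cells, and otic epithelium was 3.28%, 2.84% and 2.74%, so that neither of these sets had its lowest share in the mutant library.

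**Figure D1:**
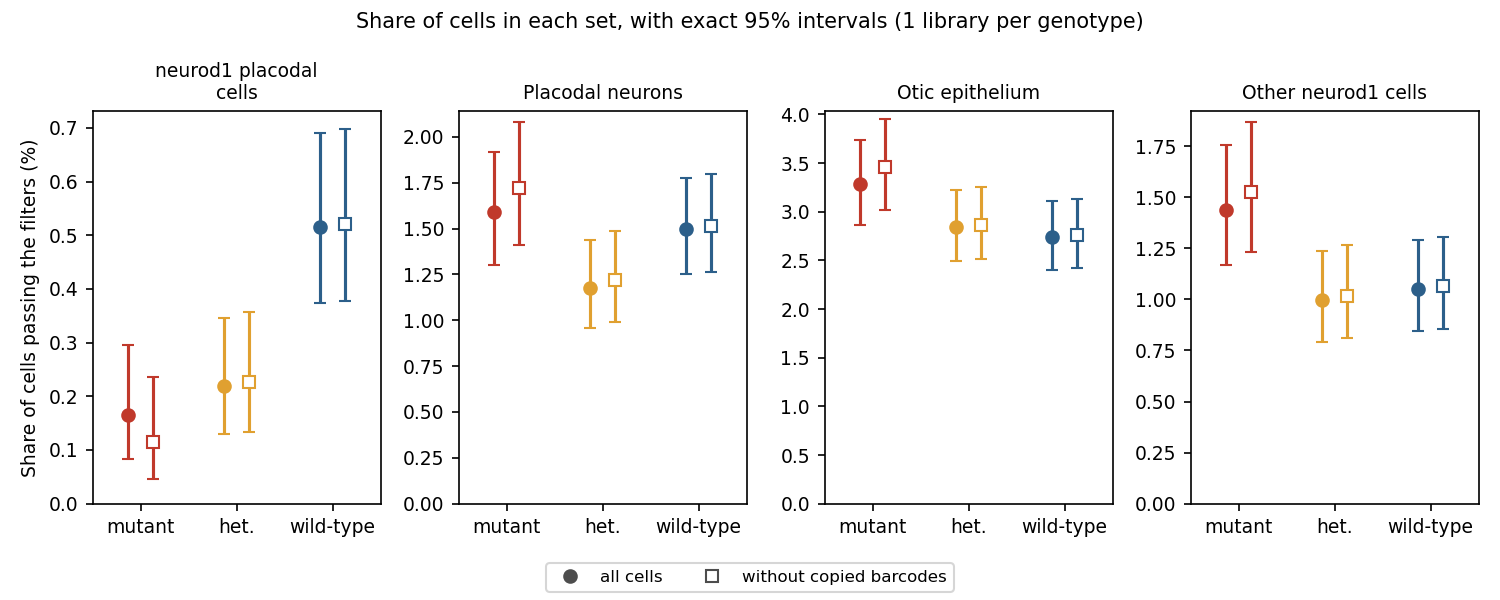
Share of the cells passing the filters (y axis, %) that belonged to each of 4 cell sets in the mutant, heterozygote and wild-type libraries, with exact 95% intervals for counting error; filled circles are all cells and open squares leave out copied barcodes. The neurod1 placodal cells lay at 0.165% and 0.219% in the mutant and heterozygote libraries, against 0.515% in the wild-type library.

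Barcodes were shared between the libraries, and this bears on the mutant cells. The mutant library shared 1497 barcodes with the heterozygote and 2083 with the wild-type library, and the heterozygote and wild-type libraries shared 1089. A barcode with at least 5 times as many UMIs in another library was counted as a copy. Of the neurod1 placodal cells, 4 of 11 mutant cells were copies of wild-type barcodes, with 954 to 1500 UMIs against 34390 to 58382 UMIs in their wild-type source, whereas 0 heterozygote and 0 wild-type cells were copies. Without copied barcodes, 7 mutant, 18 heterozygote and 44 wild-type cells remained, or 0.115% (0.0462% to 0.237%), 0.226% and 0.520% of cells. The copies held 1.97% of the UMIs of the mutant neurod1 placodal cells, so that summed levels hardly depended on them, but all 33 EGFP and 4 DsRed UMIs of these cells were in the copies.

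The neurod1 placodal cells had a median of 19879 UMIs in the mutant (954 to 59856), 27621 in the heterozygote (17128 to 66159) and 18808 in the wild-type library (3411 to 39309). After thinning each cell to 5000 UMIs and applying the rule anew, 0.301%, 0.315% and 0.806% of mutant, heterozygote and wild-type cells met it, or 17 of 5648, 23 of 7307 and 63 of 7817 cells. These were in part other cells, since thinning leaves out cells under 5000 UMIs, 4 mutant and 7 wild-type members among them, and lets in cells whose islet UMIs were not drawn. With 1 islet UMI allowed, the shares were 0.225%, 0.328% and 0.819%. Endothelial cells, which should lack neurod1, reached 3 neurod1 UMIs in 1 of 93 mutant, 0 of 103 heterozygote and 0 of 162 wild-type cells, where the counts of 0 allow a share of up to 2.91% in the heterozygote and 1.85% in the wild-type library. The placode part of the rule, 2 UMIs of six1b plus eya1, was met by 10.8%, 5.83% and 14.2% of these endothelial cells, and both parts by 1 mutant cell. Their median depths were 22632, 21438 and 19720 UMIs.

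Many cells lay near the edges of the rule, and in the mutant library those just inside were largely copied barcodes. At 3 neurod1 UMIs, just inside, there were 1 mutant, 2 heterozygote and 6 wild-type cells, and at 2 UMIs, just outside, 4, 5 and 9 cells met the rest of the rule. Of the members, 6 of 11 mutant, 4 of 18 heterozygote and 8 of 44 wild-type cells had 3 to 5 neurod1 UMIs. At exactly 2 placode UMIs were 4 mutant, 1 heterozygote and 6 wild-type cells. All 4 of these mutant cells were copied barcodes, which were also among the 6 mutant cells with 3 to 5 neurod1 UMIs. Just outside on the placode genes, with 1 UMI of six1b plus eya1, lay 7 mutant, 6 heterozygote and 22 wild-type cells. With 1 islet UMI there were 4, 9 and 26 such cells.

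The rule genes themselves, given as a description, were as follows. neurod1 had 3 to 94 UMIs per cell in the mutant (median 5), 3 to 92 in the heterozygote (median 20) and 3 to 189 in the wild-type library (median 11). The summed level of neurod1 was 629, 820 and 1839 CPM (the UMIs of a gene scaled by the total UMIs of the summed cells) in mutant, heterozygote and wild-type cells. six1b, a placodal homeobox gene, was at 442, 408 and 513 CPM, and eya1 at 217, 254 and 204 CPM. These genes chose the cells, and nothing is read from their levels.

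neurog1, which was given as a marker of these cells but not used by the rule, was detected in 4 of 11 mutant, 12 of 18 heterozygote and 28 of 44 wild-type cells. All 4 copied mutant barcodes had 0 neurog1 UMIs, so the mutant cells with neurog1 were 4 of the 7 that were not copies. Its summed level was 66.7 CPM from 16 UMIs in the mutant cells, 154 CPM from 88 UMIs in the heterozygote and 109 CPM from 92 UMIs in the wild-type cells. Other cells of the same libraries held 22.7, 14.1 and 15.8 CPM. In each library neurog1 was therefore above the other cells, at a low level that leaves many single cells at 0.

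shox2 was all but absent from these cells, with 1 UMI in the 11 mutant, 4 UMIs in the 18 heterozygote and 4 UMIs in the 44 wild-type cells. The library kit captures the 3′ end of transcripts and the deletion lies in exons 1 and 2, and since the position of the reads within shox2 was not tested, these counts do not check the genotype. In the wild-type cells the reporters were prominent: EGFP was found in 41 of 44 cells at 2507 CPM, and DsRed in 35 of 44 cells at 658 CPM. EGFP was found in 6 of 18 heterozygote cells at 428 CPM, against 260 CPM in the other cells of that library.

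Within the 73 cells, a group with genes of the otic vesicle stood beside cells without them. A split by genes was made after the values were seen and is a description only. At 3 oc90 UMIs or more there were 42 cells (4 mutant, 9 heterozygote and 29 wild-type), where oc90 encodes an otoconial matrix protein of the ear. In these 42 cells stm, which encodes the otolith matrix protein Starmaker, had UMIs in 42 of 42 cells at 1254 CPM, and prdm12b, a PR-domain factor of sensory neuron development, had UMIs in 29 cells at 492 CPM. neurog1 was at 183 CPM in 33 of the 42 cells, and snai1b, a Snail-family factor linked to epithelial cells leaving their layer, at 336 CPM in 39 cells. elavl3, which encodes an RNA-binding protein of neurons, had UMIs in only 20 of the 42 cells, at 150 CPM. In endothelial cells, as a measure of free RNA, 3 oc90 UMIs were reached in 7.53%, 3.88% and 1.85% of mutant, heterozygote and wild-type cells, against 4 of 11, 9 of 18 and 29 of 44 neurod1 placodal cells.

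A second kind, 9 cells with at least 3 of 6 genes (dlx3b, dlx4b, uncx, fezf1, emx3 and znf296), came from the heterozygote library in 8 cells, the mutant library in 1 and the wild-type library in 0. All 6 genes are among the 8 highest or 8 lowest ratios between libraries in these same cells. The split by library is therefore in part fixed by the choice of genes, and nothing is read from it. dlx3b and dlx4b are homeobox genes of the preplacodal border that persist in the olfactory placode, and emx3 and fezf1 are known from forebrain and olfactory territories. The study's introduction also gives dlx3b and dlx4b a role in the neuronal or sensory competence of the ear, so these genes alone do not set a cell apart from it. In these cells dlx3b was at 580 CPM, emx3 at 610 CPM, elavl3 at 2394 CPM, neurod4, a bHLH factor downstream of the proneural genes, at 569 CPM, and insm1b, a zinc-finger factor of neuronal progenitors, at 1021 CPM, while oc90 was at 3.74 CPM and prdm12b at 3.74 CPM. neurod1, a rule gene given as a description, was at 1197 CPM, beside 1549 CPM in the oc90 cells. In the other cells of the libraries dlx3b was at 45.1, 40.6 and 32.7 CPM in mutant, heterozygote and wild-type, whereas fezf1 was at 1.2, 3.04 and 0.0456 CPM, so the wild-type library held almost no fezf1. Whether the dissections reached equally far forward was not tested.

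Another kind, 8 cells with at least 5 UMIs of vsx1, otpa and dbx1a together, came from the mutant library in 2 cells and the wild-type library in 6. These are homeobox genes of interneurons and progenitors of the neural tube. They too are among the highest or lowest ratios between libraries in these same cells, so the split by library is in part fixed by their choice. All 8 held hoxb3a, a Hox gene of the hindbrain, at 411 CPM, against 29.4 CPM in the oc90 cells. foxg1a, a forkhead gene of the placodes and forebrain, was found in 1 of the 8 cells, against 36 of the 42 oc90 cells. elavl3 reached 3043 CPM. The rule genes, given as a description, were at 333 CPM for neurod1 and at 86.9 CPM for six1b, against 626 CPM of six1b in the oc90 cells. The cells were not alike: 1 wild-type cell, also counted among the oc90 cells, had 15 oc90, 18 stm and 10 six1b UMIs and no elavl3, and another had elavl3 at 208 CPM. For the summed kind the leading genes outside the rule go against the name neuroblast of a placode, and no other name is given. This kind held 39.2% of the UMIs of the mutant and 13.3% of those of the wild-type neurod1 placodal cells. The oc90 cells held 24.6% and 69.7%, so summed mutant levels weigh this kind more than the oc90 cells.

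Smaller groups completed the 73. There were 5 cells with at least 10 UMIs of the epidermal genes icn and cldne (2 heterozygote and 3 wild-type). Both genes are among the lowest ratios between libraries, so this split too is in part fixed by their choice. Some cells fell into 2 kinds, namely 2 oc90 cells of the wild-type library with another kind and 2 heterozygote cells with both the dlx3b and the epidermal genes. 13 cells met no rule of this kind, 3 of which were copies. Single cells dominated a few genes: 653 of the 654 gch2 UMIs of the heterozygote cells, a pigment gene, sat in 1 cell, and 889 of the 1075 icn UMIs of the wild-type cells in another. Doublets were not called, and whether any of these cells are 2 cells in 1 droplet was not tested.

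**Figure D2:**
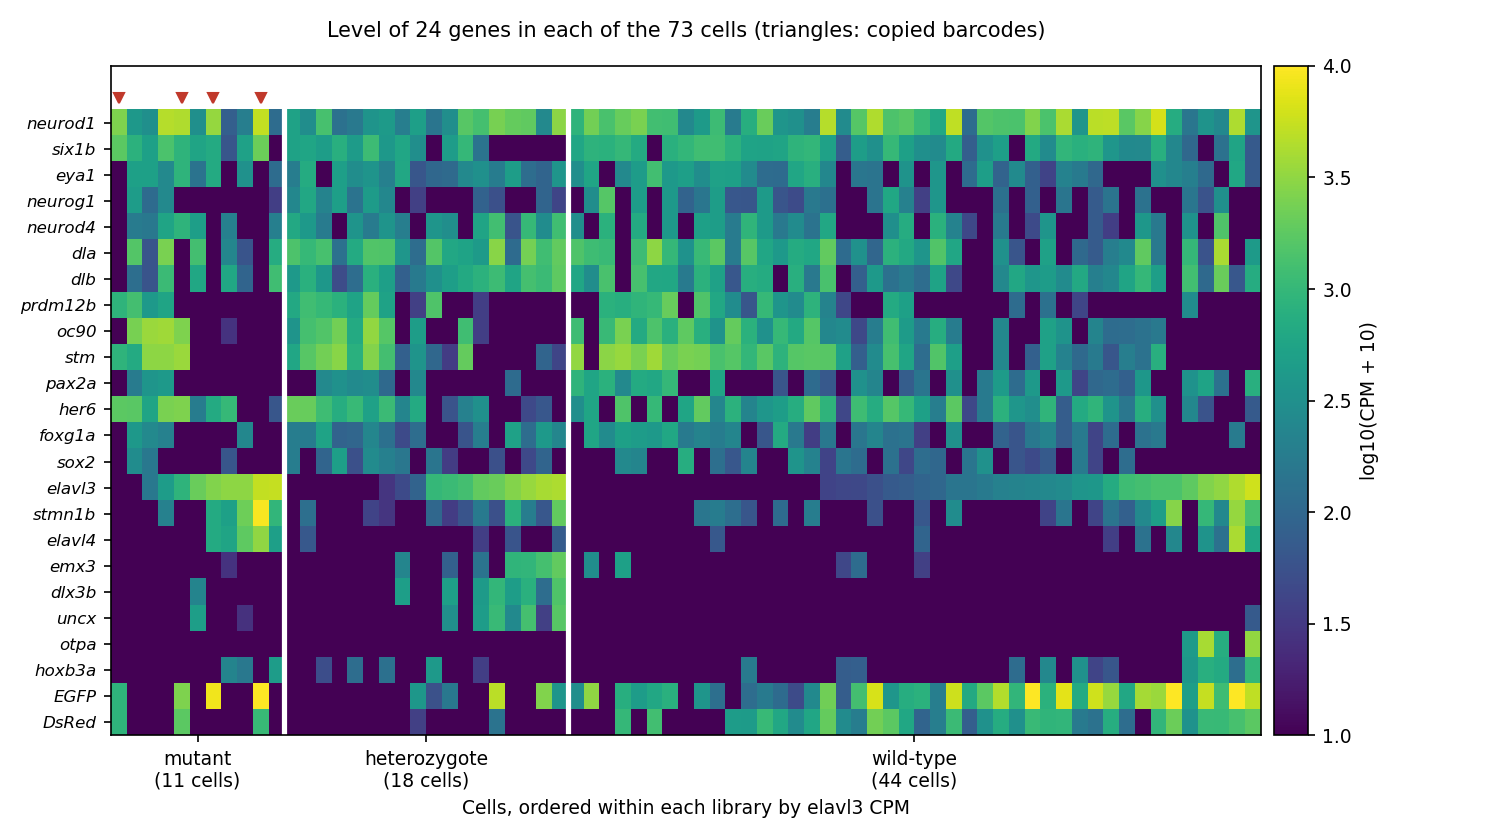
Level of 24 genes (rows, as log10 of CPM plus 10) in each of the 73 neurod1 placodal cells (columns), ordered by elavl3 within the mutant, heterozygote and wild-type libraries; red triangles mark the 4 copied barcodes. High oc90, stm and prdm12b lie at the low-elavl3 side of each library, dlx3b, emx3 and uncx mostly at the high-elavl3 side of the heterozygote cells, with 1 exception at 36.6 CPM of elavl3, and otpa in 4 wild-type cells.

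Across cells, otic genes and elavl3 were seldom high together. Over the 73 cells, the correlation of oc90 with elavl3 on the log scale was -0.64, with -0.60 within the 11 mutant, -0.77 within the 18 heterozygote and -0.68 within the 44 wild-type cells. neurog1 and elavl3 were correlated at -0.45 and six1b and elavl3 at -0.49, while oc90 and stm reached 0.92 and the Delta ligand genes dla and dlb 0.70. These values describe cells that share a library and a selection, with depths that differ between cells. By elavl3 level, 23 cells were at 1000 CPM or more (6 mutant, 8 heterozygote and 9 wild-type), 44 were under 300 CPM (3, 9 and 32), and 6 lay between. Copied barcodes were 2 of the 6 mutant cells at 1000 CPM or more, 1 of the 3 under 300 CPM and 1 of those between.

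**Figure D3:**
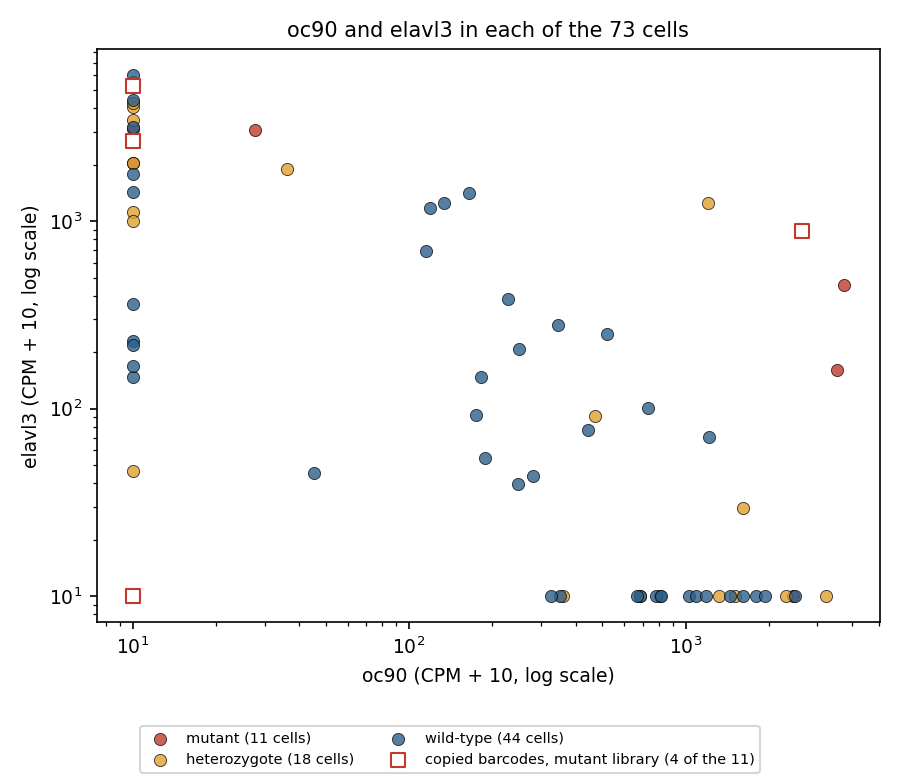
oc90 (x axis) against elavl3 (y axis) in each of the 73 cells, both as CPM plus 10 on log scales, coloured by library; open squares are the 4 copied barcodes of the mutant library. Of the 42 cells with 3 oc90 UMIs or more, 2 had elavl3 at 1000 CPM or more, and the 23 cells with elavl3 at 1000 CPM or more lay mostly at the left edge, 17 of them without an oc90 UMI.

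The first contrast set the sums of the neurod1 placodal cells against those of otic epithelium. That set held 687 cells with oc90 at 5 UMIs or more, six1b plus eya1 at 2 or more and no neurod1. Whether the compared sets form successive stages was not tested, and part of the neurod1 placodal cells did not carry otic genes. Of the listed genes tested, 11 of 21 neurogenic factors and 12 of 27 Notch pathway genes were higher in the neurod1 placodal cells, and 8 of 19 otic epithelium genes lower. In this and the next 2 contrasts, the UMIs of each set were summed per library, giving 3 sums a set, and were tested with edgeR's quasi-likelihood test with a term for the library and Benjamini-Hochberg adjustment, called at an adjusted p under 0.05. The 3 libraries differ in genotype and serve as the only replicates. The sets were gated on the same counts, so genes that vary with the gating genes differ in part through the choice of cells, and the gating genes were not tested.

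Of 10099 genes tested, 338 (3.35%) were higher and 361 (3.57%) lower in the neurod1 placodal cells than in otic epithelium. Of 21 neurogenic factors tested, 11 were higher and 2 lower, with a median log2 fold change of 2.82 against -0.05 over all genes. neurod4 had 196, 379 and 219 CPM in the mutant, heterozygote and wild-type neurod1 placodal cells, against 6.1, 2.16 and 9.99 CPM in otic epithelium of the same libraries (log2 fold change 5.39 ± 0.55 SE, edgeR adjusted p = 0.00241). insm1b had 238, 577 and 186 CPM, against 13.0, 7.98 and 5.77 CPM in otic epithelium (5.12 ± 0.53, edgeR adjusted p = 0.00245). neurog1 had 66.7, 154 and 109 CPM, against 31.8, 16.8 and 6.61 CPM (2.82 ± 0.48, edgeR adjusted p = 0.0149). In each of these genes the lowest of the 3 neurod1 placodal values lay above the highest epithelial one. The share of all tested genes without such overlap is not given here, so this has no background to be read against. The 2 that were lower were atoh1a, the proneural gene of hair cells (-4.70), and id3, an inhibitor of bHLH factors (-1.99).

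Of 27 Notch pathway genes, 12 were higher and 1, notch2 (-1.94), was lower. The ligand gene dlb had 513, 633 and 420 CPM in mutant, heterozygote and wild-type neurod1 placodal cells, against 48.5, 31.7 and 43.1 CPM in otic epithelium (log2 fold change 3.58 ± 0.27). dla had 629, 1090 and 587 CPM, against 120, 95.1 and 95.2 CPM (2.77 ± 0.21). The receptor gene notch1a had 475, 328 and 324 CPM, against 60.0, 48.8 and 62.9 CPM (2.60 ± 0.15, edgeR adjusted p = 1.49e-05). Ligands and receptor were thus higher in the same summed cells, and lfng, a glycosyltransferase that modifies Notch, was higher as well (1.86 ± 0.22).

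Of 24 post-mitotic neuron genes, 5 were higher and 0 lower, led by elavl3 at 2639, 1129 and 566 CPM, against 25.7, 38.3 and 44.5 CPM in otic epithelium (5.01 ± 0.62, edgeR adjusted p = 0.00882). Of 20 adhesion and migration genes 3 were higher and 5 lower. The higher ones were snai1b (2.94 ± 0.36), cxcr4b, a chemokine receptor of migrating cells (2.33 ± 0.35), and ncam1a, a neural cell adhesion gene (1.84 ± 0.27), and the lower ones included alcama, also an adhesion gene (-2.97 ± 0.64), snai2 (-3.31 ± 0.67) and cdh11, a cadherin gene (-2.75 ± 0.19). Among placode genes eya2 (2.16 ± 0.28) and six4b (1.22 ± 0.23) were higher, and gata3, a zinc-finger factor of the otic vesicle (-2.01 ± 0.37), was lower. sox3, a SoxB1 progenitor gene, was higher by 0.80 ± 0.18. Hence 4 of 21 placode genes were higher and 2 lower.

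Of 19 genes of the otic epithelium list, 8 were lower and 0 higher. tbx1, a T-box factor known in mouse to restrain otic neurogenesis, had 0, 8.76 and 5.91 CPM in the neurod1 placodal cells, against 148, 125 and 137 CPM in otic epithelium (log2 fold change -4.62 ± 0.39, edgeR adjusted p = 0.000104). hmx2, a homeobox gene of the vesicle, had 0, 5.26 and 3.55 CPM, against 41.5, 31.9 and 63.0 CPM (-3.74 ± 0.53). lmx1bb (-4.99 ± 0.99), a LIM homeobox gene, bricd5 (-2.24 ± 0.23) and, outside the lists, s100t (-6.54 ± 0.55) were lower too. Of 19 FGF pathway genes 7 were lower, among them fgf10a, a ligand gene (-2.65 ± 0.54), and spry2, a feedback inhibitor (-1.44 ± 0.28), and 1 was higher. Only 2 of 25 cell cycle genes were called, both higher, with a list median of 0.00 on the log2 scale.

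How firm these calls were depended on the libraries. Without the mutant library 435 genes were called, without the heterozygote library 155, and without the wild-type library 321. Without the heterozygote library neurog1 (2.65), elavl3 (5.17), six4b (1.40), sox3 (0.88), lmx1bb (-4.78) and spry2 (-1.58) no longer passed edgeR's threshold. Without the wild-type library this held for neurog1 (2.39), hmx2 (-3.29), lmx1bb (-5.90), gata3 (-1.87), fgf10a (-1.48) and spry2 (-1.49), and without the mutant library for neurod4 (5.61), six4b (1.21), cxcr4b (2.47), sox3 (0.76) and fgf10a (-2.60). alcama passed neither without the heterozygote (-3.00) nor without the mutant library (-2.57). dla, dlb, notch1a, insm1b, lfng, eya2, snai1b, tbx1 and s100t kept the call whichever library was left out.

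Restricting the members to the 42 oc90 cells, an alternative chosen after seeing the data, left 259 called genes, 191 of them shared with the 699. neurog1 (3.67), neurod4, insm1b, dla, dlb and notch1a stayed higher and tbx1, hmx2 and s100t lower. elavl3 (1.96), gata3 (-1.14), lmx1bb (-5.08) and fgf10a (-1.94) no longer passed, and sox3 turned to -0.41. prdm12b was higher in this setting (2.28), whereas over all 73 cells it did not pass (1.37, edgeR adjusted p = 0.0599).

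**Figure D4:**
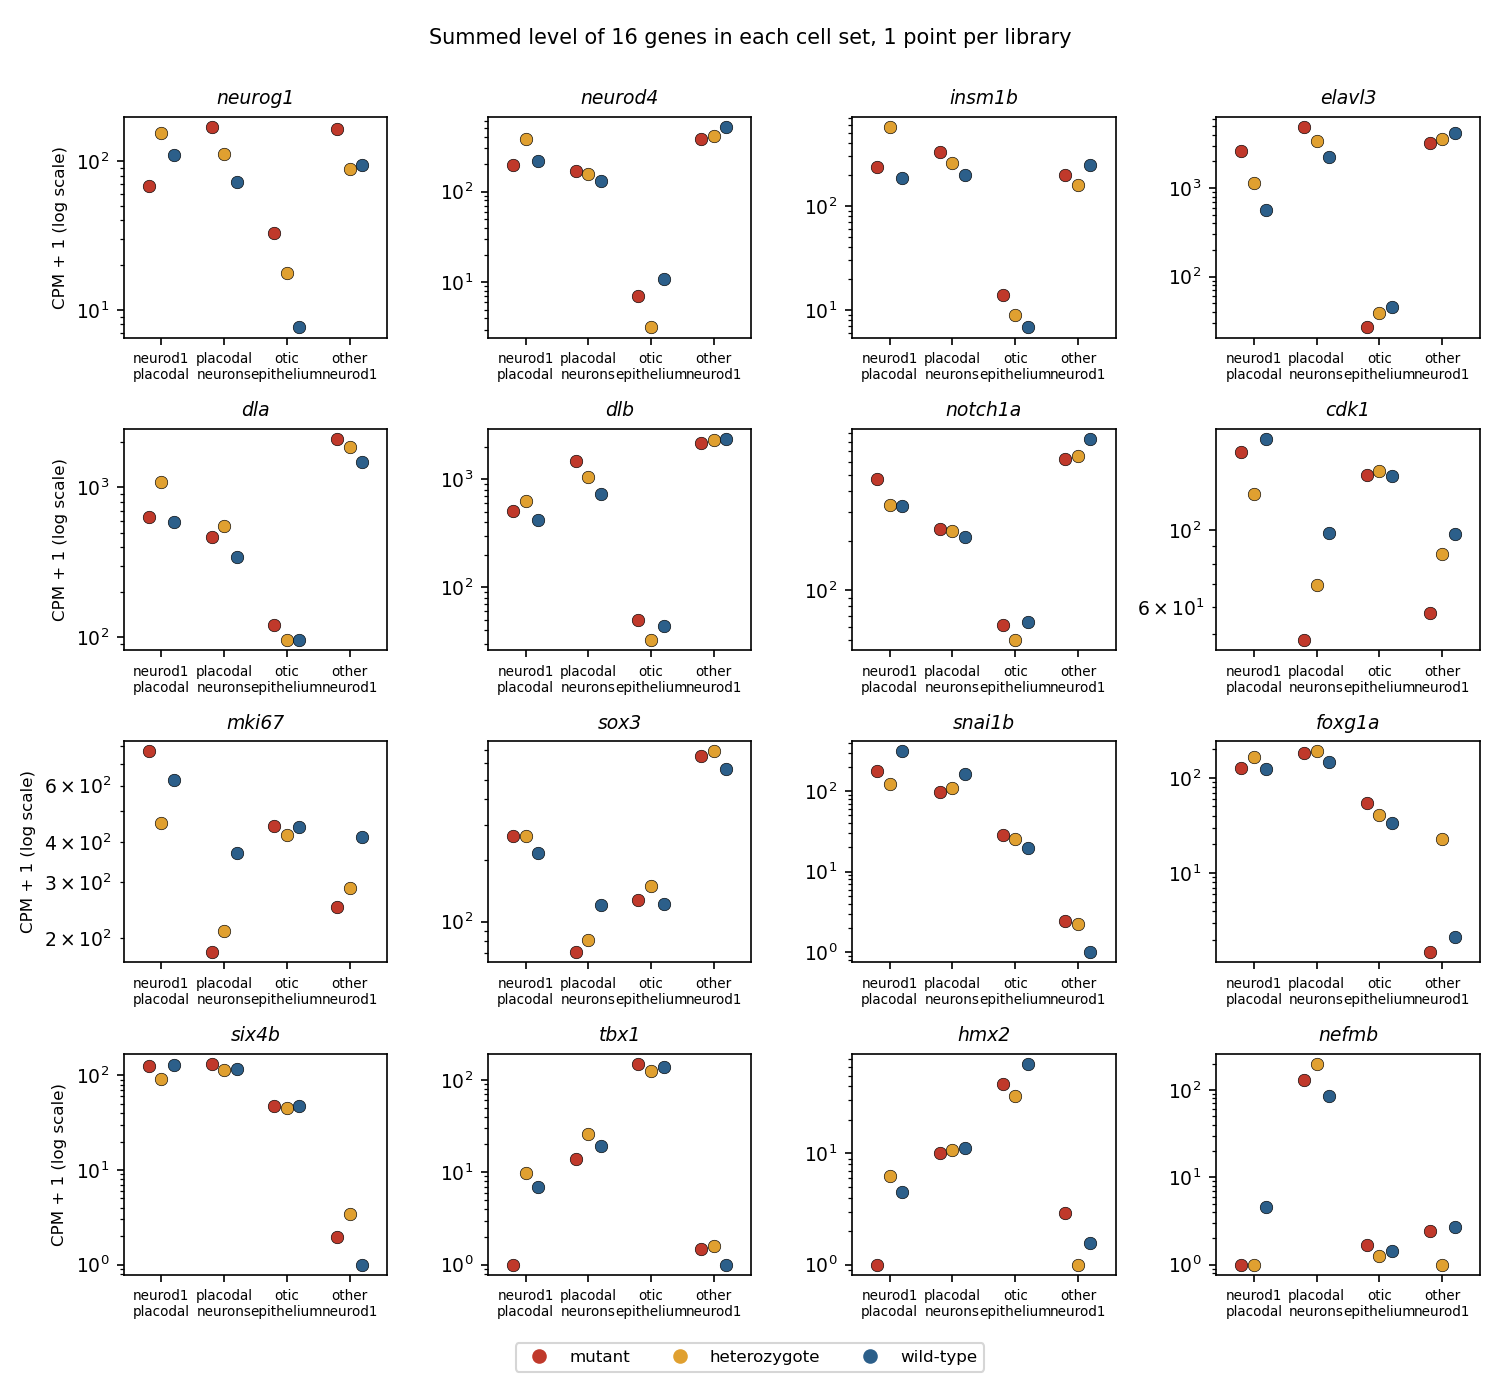
Summed level (y axis, CPM plus 1 on a log scale) of 16 genes in the neurod1 placodal cells, placodal neurons, otic epithelium and other neurod1 cells, with 1 point each for the mutant, heterozygote and wild-type libraries. neurod4, insm1b, dla, dlb and notch1a lay higher in the neurod1 placodal cells than in otic epithelium, tbx1 and hmx2 lower, and nefmb was lower in the neurod1 placodal cells than in placodal neurons.

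The second contrast was with the 331 placodal neurons, cells with six1b plus eya1 at 2 or more, neurod1 at 3 or more and islet UMIs at 2 or more. Of the listed genes tested, 9 of 25 cell cycle genes were higher in the neurod1 placodal cells, and 2 of 7 epibranchial and visceral and 3 of 8 somatic sensory genes lower. Of 10100 genes tested, 273 (2.7%) were higher and 333 (3.3%) lower. Of the cell cycle genes 0 were lower, and their median log2 fold change was 0.76 against -0.02 over all genes. mki67 had 767, 459 and 625 CPM in mutant, heterozygote and wild-type neurod1 placodal cells, against 180, 209 and 369 CPM in placodal neurons (log2 fold change 1.26 ± 0.21, edgeR adjusted p = 0.0148). cdk1, the mitotic kinase, had 167, 126 and 182 CPM, against 47.2, 68.5 and 97.3 CPM (1.12 ± 0.20). ccna2, cyclin A2, had 196, 181 and 174 CPM, against 65.1, 67.7 and 99.7 CPM (edgeR adjusted p = 0.0120). pcna, a replication clamp, was higher by 0.80 ± 0.14 and sox3 by 1.41 ± 0.19. In all 5 genes each neurod1 placodal value lay above each neuronal one, but the share of all tested genes without overlap is not given here.

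A few genes of sensory neurons were at or near 0 in the neurod1 placodal cells. nefmb, a neurofilament gene, had 0, 0 and 3.55 CPM, against 128, 198 and 83.2 CPM in placodal neurons of the mutant, heterozygote and wild-type libraries (log2 fold change -6.13 ± 0.64, edgeR adjusted p = 0.00372). tlx2, a homeobox gene of visceral sensory neurons, had 12.5, 1.75 and 7.09 CPM, against 393, 265 and 260 CPM (-5.55 ± 0.80). drgx, a homeobox gene of somatic sensory neurons (-4.99 ± 1.01), and alcama, an adhesion molecule of growing axons (-3.69 ± 0.65), were lower as well. The lists as a whole were not at 0: the somatic sensory genes, prdm12b among them, summed to 404, 554 and 261 CPM, against 935, 665 and 591 CPM in placodal neurons. In the heterozygote and wild-type cells most of this sum was prdm12b alone. Of the 16 genes found, 10, 12 and 9 were at 0 in the mutant, heterozygote and wild-type cells. The epibranchial and visceral genes summed to 91.7, 15.8 and 79.2 CPM, against 575, 443 and 418 CPM in placodal neurons. In neither sensory list was a gene higher, and 2 of 24 post-mitotic neuron genes were lower. elavl3 (-1.43, edgeR adjusted p = 0.165) and stmn1b, a tubulin-binding stathmin (-1.56, 0.185), did not pass, and their library values overlapped between the sets.

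Both shox genes were low in the neurod1 placodal cells. shox2 had 4.17, 7.01 and 4.73 CPM in mutant, heterozygote and wild-type neurod1 placodal cells, against 27.6, 51.6 and 41.6 CPM in placodal neurons (log2 fold change -3.24 ± 0.82, edgeR adjusted p = 0.0508, above the threshold of 0.05). shox had 0, 0 and 3.55 CPM, against 17.1, 15.4 and 15.6 CPM (-3.19 ± 0.78, edgeR adjusted p = 0.0452). Among neurogenic genes neurog1 (0.12, adjusted p = 0.917) and neurod4 (0.75, 0.354) did not pass, dlb was lower (-1.07 ± 0.25) and notch1a higher (0.67 ± 0.14). Of 24 hindbrain and neural tube genes 4 were higher and 0 lower, with a median log2 fold change of 1.56. The summed list went the other way in each library. Its 27 genes found in the count tables summed to 1213, 612 and 710 CPM in mutant, heterozygote and wild-type neurod1 placodal cells. In placodal neurons they summed to 2077, 1640 and 1395 CPM.

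This contrast rested on the heterozygote library. Without it 0 genes passed with edgeR, with 1222 at an unadjusted p under 0.05, and mki67 (1.35), cdk1 (1.26), ccna2 (1.11), pcna (0.64), sox3 (1.28), notch1a (0.77), dlb (-1.25), nefmb (-5.16), tlx2 (-5.17), drgx (-4.08), alcama (-3.79) and shox (-2.61) kept their direction without passing. Without the mutant library 406 genes passed, and pcna (0.73), notch1a (0.56), dlb (-0.78), tlx2 (-5.73), alcama (-3.37) and shox (-2.92) were not among them, while shox2 was (-3.03). Without the wild-type library 252 genes passed, not among them drgx (-4.41), notch1a (0.72), dlb (-1.16), and shox, which is at 0 in the mutant and heterozygote neurod1 placodal cells. DESeq2 in place of edgeR called 965 over all libraries. With the 42 oc90 cells alone 1457 genes passed, 484 of them shared with the 606, elavl3 (-4.65) and stmn1b (-4.55) were lower, and sox3 (0.16) and notch1a (0.09) no longer passed.

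The third contrast set the neurod1 placodal cells against 268 other neurod1 cells, which had neurod1 at 3 or more and no six1b, eya1 or islet UMI. Of the listed genes tested, 11 of 20 otic epithelium and 9 of 21 placode genes were higher, the direction in which the gate on six1b and eya1 selects, and 13 of 27 Notch pathway and 6 of 24 hindbrain and neural tube genes were lower. Of 10100 genes, 807 (7.99%) were higher and 863 (8.54%) lower. Of the placode genes 4 were lower, and of the otic epithelium genes 0. six4b had 125, 91.1 and 128 CPM in mutant, heterozygote and wild-type neurod1 placodal cells, against 0.946, 2.43 and 0 CPM in the other neurod1 cells (log2 fold change 6.46 ± 0.39, edgeR adjusted p = 5.66e-06). six1a had 117, 124 and 137 CPM, against 2.36, 1.82 and 0 CPM (6.22 ± 0.37). snai1b had 175, 121 and 310 CPM, against 1.42, 1.21 and 0 CPM (7.50 ± 0.58). foxg1a had 125, 165 and 122 CPM, against 0.473, 21.9 and 1.15 CPM (4.15 ± 0.78). Each of these genes was at or close to 0 in the other neurod1 cells, apart from foxg1a in the heterozygote library. Against placodal neurons none of them passed, so they are not shown to be particular to the neurod1 placodal cells. There six4b was at -0.11 (edgeR adjusted p = 0.821), six1a at -0.50 (0.219), snai1b at 0.66 (0.266) and foxg1a at -0.37 (0.770).

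Of the Notch pathway genes 6 were higher, and of 21 neurogenic factors, 7 were lower and 0 higher. dlb had 513, 633 and 420 CPM in the neurod1 placodal cells, against 2186, 2304 and 2358 CPM in the other neurod1 cells (log2 fold change -2.34 ± 0.26, edgeR adjusted p = 0.00106). dla was lower by -1.46 ± 0.20, notch1a by -1.13 ± 0.14, sox3 by -1.58 ± 0.18 and nhlh2, a bHLH gene of early neurons, by -3.11 ± 0.43. dla, dlb and notch1a therefore lay between otic epithelium and the other neurod1 cells in this tissue, as the plot of levels by cell set shows. Of the hindbrain and neural tube genes 0 were higher, and of 8 Hox genes 3 were lower. Of 25 cell cycle genes 6 were higher and 2 lower. Without the heterozygote library 280 genes were called, and without the wild-type library 705, where dla (-1.44) and foxg1a (3.64) no longer passed. Without the mutant library 1686 were called.

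**Figure D5:**
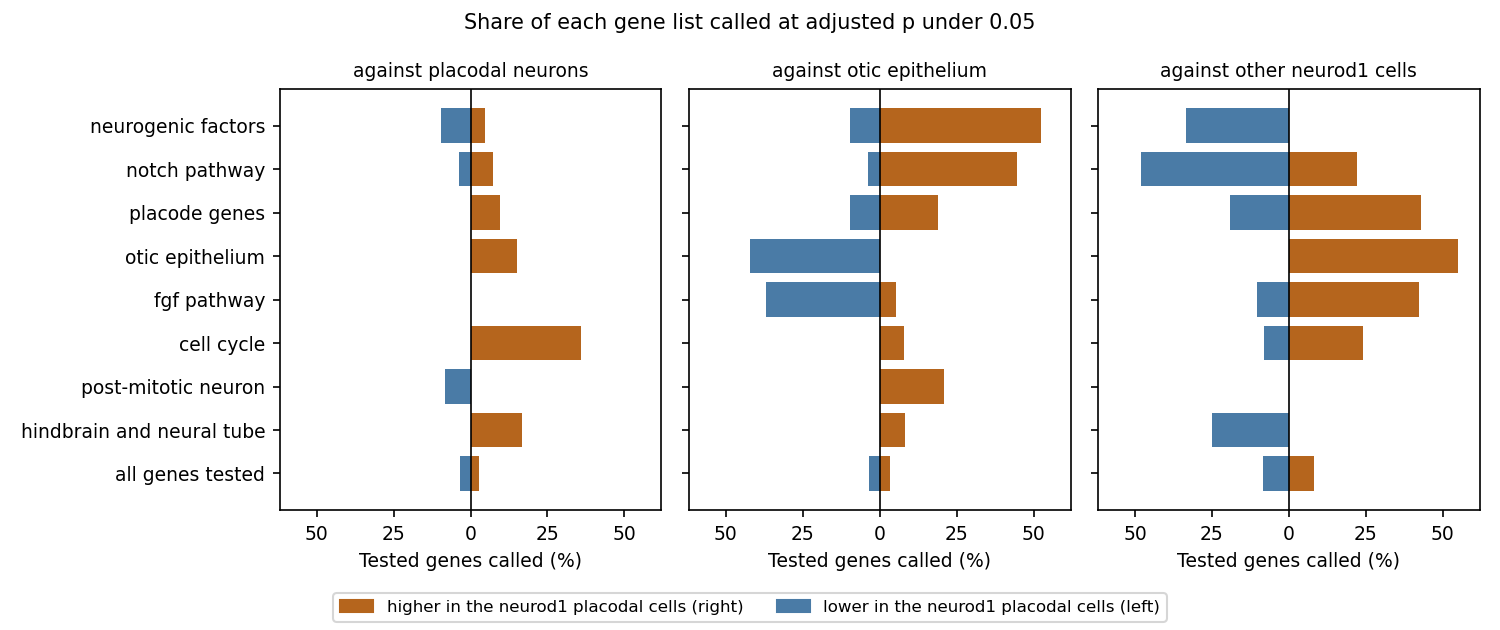
Share of the tested genes of 8 lists, and of all genes tested, called higher (right) or lower (left) in the neurod1 placodal cells (x axis, %) against 3 cell sets, at an edgeR adjusted p under 0.05. Against otic epithelium 11 of 21 neurogenic and 12 of 27 Notch genes were higher, and against placodal neurons 9 of 25 cell cycle genes were.

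Within the 73 cells, those with neurog1 at 2 UMIs or more (3 mutant, 9 heterozygote and 19 wild-type) were set against those with none (7, 6 and 16, with the 4 copies among the mutant ones). The median depth of cells with neurog1 was 19879, 36474 and 18988 UMIs in the mutant, heterozygote and wild-type libraries. For cells without it, the median was 1500, 24760.5 and 18656.5 UMIs, and the part of depth was not tested. Of 2730 genes tested, 10 (0.366%) were higher and 6 (0.22%) lower with edgeR, with 213 at an unadjusted p under 0.05. efhd1, a calcium-binding mitochondrial protein gene, had 586, 578 and 202 CPM in mutant, heterozygote and wild-type cells with neurog1, against 34.7, 50.6 and 34.3 CPM in cells without it (log2 fold change 3.29 ± 0.33, edgeR adjusted p = 0.0120). tbx2a, a T-box factor (3.45 ± 0.46), six1a (2.12 ± 0.29), bricd5 (2.69 ± 0.41), kctd12.2 (2.34 ± 0.32) and sparc, a matrix protein gene (1.53 ± 0.22), were higher too. stmn1b had 69.0, 40.4 and 63.8 CPM, against 1172, 158 and 374 CPM (-2.73 ± 0.36), and cyp26b1, an enzyme that breaks down retinoic acid, was lower by -3.78 ± 0.56. Most stmn1b UMIs of the mutant cells without neurog1, 131 of them, came from 1 cell with 59856 UMIs. Of 23 cell cycle genes 0 passed.

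These 16 calls depended on the mutant library. Without the mutant library 1 gene passed, and efhd1 (3.05), tbx2a (3.46), six1a (2.14), bricd5 (2.90), kctd12.2 (2.58), sparc (1.39), stmn1b (-2.29) and cyp26b1 (-3.67) did not. Without the heterozygote library 120 genes passed, insm1b (2.83) and dla (1.71) among them, and without the wild-type library 18 did, not among them six1a (2.12), kctd12.2 (2.47), bricd5 (2.47) and stmn1b (-2.90). Among the 42 oc90 cells, those without neurog1 were 1 mutant cell, which was a copied barcode, 1 heterozygote cell and 7 wild-type cells. In that setting 2 genes passed of 1214 tested, 0 of them shared with the 16, and with so few cells nothing is read from it. Cells with neurog1 and oc90 cells overlap, so the 2 splits are not separate observations.

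Between genotypes the values are those of single libraries, given with exact conditional binomial intervals for counting error only. Of 3033 genes at 50 CPM or more in either library, 431 (14.2%) were more than 2-fold higher and 159 (5.24%) more than 2-fold lower in mutant than in wild-type neurod1 placodal cells, with a median log2 ratio of 0.18 (0.03 for the same genes in the other cells). Scaled by the median of ratios instead, which moves all log2 ratios down by 0.18, 314 were higher and 217 lower. Of 3067 genes, 439 (14.3%) were higher and 177 (5.77%) lower in mutant than in heterozygote cells. Of 2697 genes, 187 (6.93%) were higher and 138 (5.12%) lower in heterozygote than in wild-type cells. These counts include genes that reached the limit only in the library where they were high, so they are in part fixed by the limit. The summed cells held 239890 UMIs in the mutant, 570613 in the heterozygote and 846198 in the wild-type library. The part of depth in these counts was not tested.

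The post-mitotic neuron list had its highest sum in the mutant cells. The 28 of its 30 genes found in the count tables summed to 11422 CPM in mutant, 2765 CPM in heterozygote and 3382 CPM in wild-type cells, against 2363, 2324 and 3097 CPM in the other cells of the libraries. elavl3 was at 2639 CPM in mutant, 1129 CPM in heterozygote and 566 CPM in wild-type cells, with a mutant over wild-type log2 ratio of 2.22 (95% interval 2.05 to 2.40). Its median per cell was 2027 CPM in the mutant (0 to 5485), 535 CPM in the heterozygote (0 to 4267) and 74.6 CPM in the wild-type library (0 to 5984), so single cells overlapped over the whole range. stmn1b was at 867, 168 and 193 CPM, and 63.0% of the mutant UMIs came from 1 cell.

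The kinds of cells in each library moved with this. The 3 mutant cells with the most elavl3 UMIs had 207, 173 and 184, and together with 37737, 56379 and 59856 UMIs they were the 3 deepest mutant cells. Of these, 2 belonged to the vsx1, otpa and dbx1a kind. foxn4, a forkhead gene of neural tube progenitors, had 84 UMIs in 2 mutant cells, 32 UMIs in 5 of 18 heterozygote cells and 0 in 44 wild-type cells. Against wild-type it reached the level limit through the mutant cells alone, so its direction is fixed by the limit. The oc90 cells were 4 of 11 in the mutant, 9 of 18 in the heterozygote and 29 of 44 in the wild-type library, or 0.060%, 0.109% and 0.339% of all cells that passed. Among the oc90 cells alone, mutant over wild-type gave a log2 ratio of 0.36 for elavl3 and 0.032 for stmn1b. This rests on 4 mutant cells, 1 of them a copy, and on a gene that runs against elavl3 across cells, so nothing is read from it, and the part of the kinds of cells was not tested.

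Of 15 neurogenic factors at 50 CPM or more in either library, 7 were more than 2-fold higher and 1 lower in mutant than in wild-type cells. Over all genes at that limit, the shares were 14.2% and 5.24%. For heterozygote over wild-type, 6 of 14 neurogenic factors were higher and 2 lower, beside 6.93% and 5.12% of all genes. The counts of neurogenic factors, like those over all genes, include genes that reached the limit only in the library where they were high. neurog1 was at 66.7, 154 and 109 CPM in mutant, heterozygote and wild-type cells, for which mutant over wild-type gave -0.70 on the log2 scale (-1.57 to 0.071), an interval that includes no difference. prdm12b was at 179, 513 and 209 CPM (mutant over wild-type -0.22, -0.74 to 0.27, and heterozygote over wild-type 1.30, 1.02 to 1.57). oc90 was at 805, 860 and 407 CPM, 0.98 (0.72 to 1.24) for mutant over wild-type, beside 0.84 in the other cells of the same libraries. dla was at 629, 1090 and 587 CPM and dlb at 513, 633 and 420 CPM. Cell cycle genes were 3 higher and 0 lower of 23 for mutant over wild-type, with a median of 0.19, close to the 0.18 of all genes.

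For heterozygote over wild-type, 5 of the 8 highest ratios belonged to genes that define the dlx3b kind. That kind was set after the values were seen, so this count is not a separate result. uncx had 146 UMIs in 7 of 18 heterozygote cells and 1 UMI in 1 of 44 wild-type cells, and dlx3b had 150 UMIs in 8 heterozygote cells and 0 in the wild-type ones. These genes reached the level limit through the heterozygote cells alone, so their direction is fixed by the limit. otpa went the other way, with 0 UMIs in the heterozygote and 160 UMIs in 4 wild-type cells, 52.5% of them in 1 cell. It reached the level limit through the wild-type cells alone, so its direction too is fixed by the limit. Among markers of other tissues, endothelial genes summed to 20.8, 15.8 and 10.6 CPM in mutant, heterozygote and wild-type neurod1 placodal cells, with 9 of 12 listed genes at 0 in each. Epidermal genes summed to 642, 1407 and 2596 CPM, against 9842, 9021 and 3896 CPM in the other cells of the libraries, and the part of either in the results was not tested.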

How the data were processed

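The authors made the deposited UMI count matrices with Cell Ranger (4.0.0 per the file headers), and the submitters' processing notes name GRCz11 and Scanpy. DsRed and EGFP were added to the reference. The deposited counts per gene and cell are not normalized. There were 25109 genes in 3 libraries. The filters follow the study's methods. Cells that passed held 131099920, 157573577 and 176280326 UMIs in the mutant, heterozygote and wild-type libraries, and the number of UMIs sets the precision. Counts were summed per library and cell set and tested with edgeR 4.0.16 (TMM, filterByExpr, a library term, R 4.3.3). The SE of a log2 fold change was its size divided by the square root of edgeR's quasi-likelihood F statistic. DESeq2 1.42.0 was an alternative. The code was tested on simulated data. No doublet caller was run. Cells are not replicates, and no test was made between genotypes. Ratios of CPM have exact conditional binomial intervals. For a ratio, a gene at 0 was set to a floor of 3 counts. Intervals cover counting error only. The members and the 23 gene lists (374 genes) were chosen with earlier results of these data known. Genes of these lists could be named, and beyond them the 10 called genes farthest up and the 10 farthest down in each contrast at 50 CPM or more, and the 8 highest and 8 lowest ratios. The kinds of cells were set after the values were seen. Alternatives moved each threshold of the rule, the filters, depth, normalization, library term and tool. Some genes are not reported here.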

Additional observations from a re-analysis of the deposited data

How the results depend on the processing

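No paired analysis was possible between genotypes because each has 1 library. The contrasts of cell sets are paired by library through the library term. Leaving out a library gave 0 to 406 called genes against placodal neurons (606 over all libraries), 155 to 435 against otic epithelium (699), 280 to 1686 against other neurod1 cells (1670) and 1 to 120 in the neurog1 split (16). Against placodal neurons, the count was 1120 with neurod1 at 2 UMIs or more, 327 at 5 or more, 1258 with 1 islet UMI allowed, 1075 without limits on genes per cell, 1238 without the 8% of cells with most UMIs, 1457 with the oc90 cells alone, 965 with DESeq2, 244 with only the compared sets in the fit and 325 without the library term. Against otic epithelium, it was 1779 with six1b plus eya1 at 1 UMI or more, 417 at 4 or more, 372 without limits on genes per cell, 259 with the oc90 cells, 1116 with DESeq2 and 449 with only the compared sets. Against other neurod1 cells, it was 749 with six1b plus eya1 at 1 or more, 608 after thinning to 5000 UMIs, which left 4040 genes tested, and 349 with only the compared sets. In the neurog1 split, it was 0 with neurod1 at 2 or more (237 at an unadjusted p under 0.05), 1 with six1b plus eya1 at 1 or more, 0 at 4 or more (154), 1 with 1 islet UMI allowed, 41 without the mitochondrial filter, 0 without limits on genes (224), 2 with the oc90 cells, 31 with DESeq2, 198 without a filter on low counts and 3 without the library term.

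The share of cells moved to 0.060% (oc90 cells) and 0.301% (thinned) in the mutant, to 0.109% (oc90 cells) in the heterozygote, and to 0.772% (six1b plus eya1 at 1 or more), 0.819% (1 islet UMI allowed), 0.339% (oc90 cells) and 0.806% (thinned) in the wild-type library. Mutant over wild-type, 374 genes were past 2-fold with six1b plus eya1 at 1 or more, 1028 among oc90 cells, 1169 for the mean over cells, and 1479 and 252 with a level limit of 20 and 100 CPM. Mutant over heterozygote, these were 996 among oc90 cells, 1223 for the mean over cells, and 1537 and 266 with the same limits. Heterozygote over wild-type, they were 675 after thinning, 898 at 20 CPM and 165 at 100 CPM. Not counting fold changes that passed the threshold in neither setting, a direction turned in 14 of the values recomputed. These were dlb against placodal neurons (0.047 with six1b plus eya1 at 1 or more) and notch1a (-0.051 after thinning), sox3 against otic epithelium (-0.41 with oc90 cells, -0.32 after thinning), prdm12b against other neurod1 cells (-0.81 after thinning), elavl3 heterozygote over wild-type (-0.25 with six1b plus eya1 at 1 or more, -0.85 with oc90 cells), neurog1 heterozygote over wild-type (-0.086 for the mean over cells), and, mutant over heterozygote, neurog1 (0.18 with 1 islet UMI allowed, 0.16 without the 8% of cells with most UMIs, 1.66 after thinning), prdm12b (0.051 without the 8%, 0.17 after thinning) and stmn1b (-0.76 after thinning). Some uncounted fold changes turned too, such as neurog1 against placodal neurons (0.12 over all libraries, -0.12 without the heterozygote library). The causes were not tested. Without copied barcodes, chosen as an alternative after seeing the data, the called counts stayed at 602, 678, 1673 and 16. The depth of 11 mutant cells, 4 of them copies, limits every mutant value.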
